A study of Mus musculus with 16 samples.

Results

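The comparison described here is that of untreated Ptpn1 knockout liver progenitor cells with untreated wild-type cells of the same type. It takes 8 of the 16 RNA-sequencing libraries of the study, which are 4 KO control libraries (genotype Ptpn1-/-, agent CONTROL) and 4 WT control libraries (genotype Ptpn1+/+, agent CONTROL), and all 55421 genes of the deposited table. The other 8 libraries, 4 KO and 4 WT, received palmitic acid at 400 µM and were used here to share the estimate of spread and as libraries in which the same difference could be measured again. All cells were mouse hepatic progenitor cells, per the labels, grown in DMEM with 10% FBS, and palmitate was given in DMEM with 5% FBS and 1% BSA. The medium of the control cells on the day of collection is not given in the labels, and neither is the number of cell lines behind each genotype, so an effect of the genotype and a difference between lines cannot be told apart. The replicates are not described as separate cultures, and the p-values therefore measure the spread between libraries, which may be technical.

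Ptpn1 encodes the tyrosine phosphatase PTP1B, which sits on the endoplasmic reticulum and removes phosphate from the insulin receptor, the leptin receptor's kinase JAK2 and several receptor tyrosine kinases. In liver the enzyme is known as a brake on insulin signalling. Hepatic progenitor cells are bipotent cells that can give rise to hepatocytes and to bile duct cells, and in culture they carry keratins and transcription factors of both lineages.

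The control libraries held between 21553952 and 31903013 reads, recovered from the deposited normalized counts. The first principal component of the 8 control libraries separated the genotypes and took 88.53% of the variance. Ribosomal RNA, mitochondrial included, made up 0.0812% to 0.0863% of the reads in KO control libraries and 0.0525% to 0.0543% in WT control libraries. The 2 mitochondrial ribosomal RNA genes were both called higher in KO, by log2 differences of 0.69 and 0.80. The 2 other ribosomal RNA genes tested were not called (-0.13 and -0.09). The part of ribosomal RNA in the results below was not tested. The label of the cells was checked against marker genes. The duct and progenitor keratin Krt7 averaged 8174 ± 286 normalized counts in KO control and 6465 ± 106 in WT control libraries (SD, n = 4 each), and Krt19 averaged 4545 ± 148 in KO control and 3407 ± 129 in WT control, so both genotypes carried these keratins. Of 14 tested progenitor and duct markers (16 in the list) 11 were higher in KO, 6 of them at least 2-fold, and Prom1, Cftr and Foxl1 were at least 2-fold lower. Epcam, a surface marker of the same cells, did not pass the filter on low values and was near absent in both genotypes, with 6 reads over the KO control libraries and 0 over the WT control libraries. Prom1 had 0 reads over the KO control libraries and 80 over the WT control libraries.

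The sets of markers of other liver cell types differed between the genotypes. The summed level of 18 hepatocyte markers lay between 3632 and 3721 ppm (parts of the summed level of nuclear protein-coding genes, each level being the normalized count per kilobase of exon) in KO control libraries and between 234 and 238 in WT control libraries, and 10 of the 11 that passed the filter on low values were at least 2-fold higher in KO. Cyp3a11, G6pc and Pck1, enzymes of mature hepatocytes, did not pass the filter and were near absent in both genotypes, with 3, 7 and 17 reads over the KO control libraries and 0 over the WT control libraries. The summed level of 13 stellate cell and fibroblast markers lay between 64.1 and 90.1 ppm in KO control libraries and between 3104 and 3307 in WT control libraries, and all 9 that passed the filter were at least 2-fold lower in KO. Lrat and Thy1 had 0 reads in both genotypes and Lum had 0 reads in KO. Endothelial markers summed to 0.526 to 0.960 ppm in KO control and 2.60 to 3.05 in WT control libraries, and most of the WT sum was Cdh5 (0.307 ppm in KO control and 2.56 in WT control). Of the 3 endothelial markers that passed the filter Cdh5 was at least 2-fold lower, Stab2 was at least 2-fold higher, with 39 reads over the KO control and 0 over the WT control libraries, and Vwf was not called (log2 difference 0.11 ± 0.33). Macrophage and leukocyte markers summed to 191 to 199 ppm in KO control and 103 to 112 in WT control libraries, with Adgre1, Clec4f and Cd3e at 0 reads in both. Most of that sum was Cd14 (170 ppm in KO control and 83.8 in WT control), the 1 of 4 tested members that was at least 2-fold higher, while the leukocyte gene Ptprc was not called (-0.23 ± 0.20). Of 4 tested mesothelial markers Wt1 (-3.21 ± 0.24), Upk3b (-2.35 ± 0.06) and Upk1b (-1.81 ± 0.16) were at least 2-fold lower in KO, and Msln, which made up most of their summed level, was higher (0.73 ± 0.03). In bulk samples such as these, fewer cells of a type and less RNA per cell cannot be told apart, and the part of these markers in the gene differences below was not tested.

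Ptpn1 transcripts were present in all KO control libraries at a reduced level. Ptpn1 (ENSMUSG00000027540.13, on chromosome 2 of GRCm38) had 326.6, 351.2, 327.8 and 312.5 normalized counts in the 4 KO control libraries, against 1928, 1972, 1960 and 1885 in the 4 WT control libraries. Every KO library lay below every WT library, and the KO mean was 17.0% of the WT mean. The log2 difference was -2.55 ± 0.04 (SE), and a two-sided exact permutation test gave p = 0.0286, the lowest value that 8 libraries in 2 groups of 4 can reach. Reads were summed over the whole gene, and the position of the remaining reads within it was not analysed here.

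Of 15239 genes that passed the filter (at least 10 normalized counts in at least 4 libraries), 11744 differed between KO control and WT control at an adjusted p below 0.05 in limma, which is 77.1% of those tested. The calls split into 5759 genes higher in KO (37.8%) and 5985 lower (39.3%). At least 2-fold differences were found for 3378 genes (22.2%), with 1592 higher in KO (10.4%) and 1786 lower (11.7%). The 4 KO and 4 WT libraries did not overlap for 10877 genes (71.4%), so absence of overlap was the usual case in these cells. Large differences were numerous, as 207 genes were called at least 16-fold higher and 235 at least 16-fold lower in KO, and 70 were called at least 64-fold higher and 14 at least 64-fold lower.

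Of 441 tested genes for secreted proteins, 115 were at least 2-fold higher and 172 at least 2-fold lower in KO, together 65.1% of those tested. Of 662 tested genes for surface proteins and channels, 134 were at least 2-fold higher and 191 lower (49.1%). Of 490 tested transcription factor genes in the lists, which leave out the HOX genes, 61 were higher and 107 lower by that measure (34.3%). Of 484 tested genes in intracellular families 66 were higher and 89 lower (32.02%). Over all 13093 tested protein-coding genes 1289 were at least 2-fold higher and 1572 lower, which is 21.9%. A gene low in one genotype passed the filter only through the other, so these shares describe the tested genes and not the whole families.

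**Figure D1:**
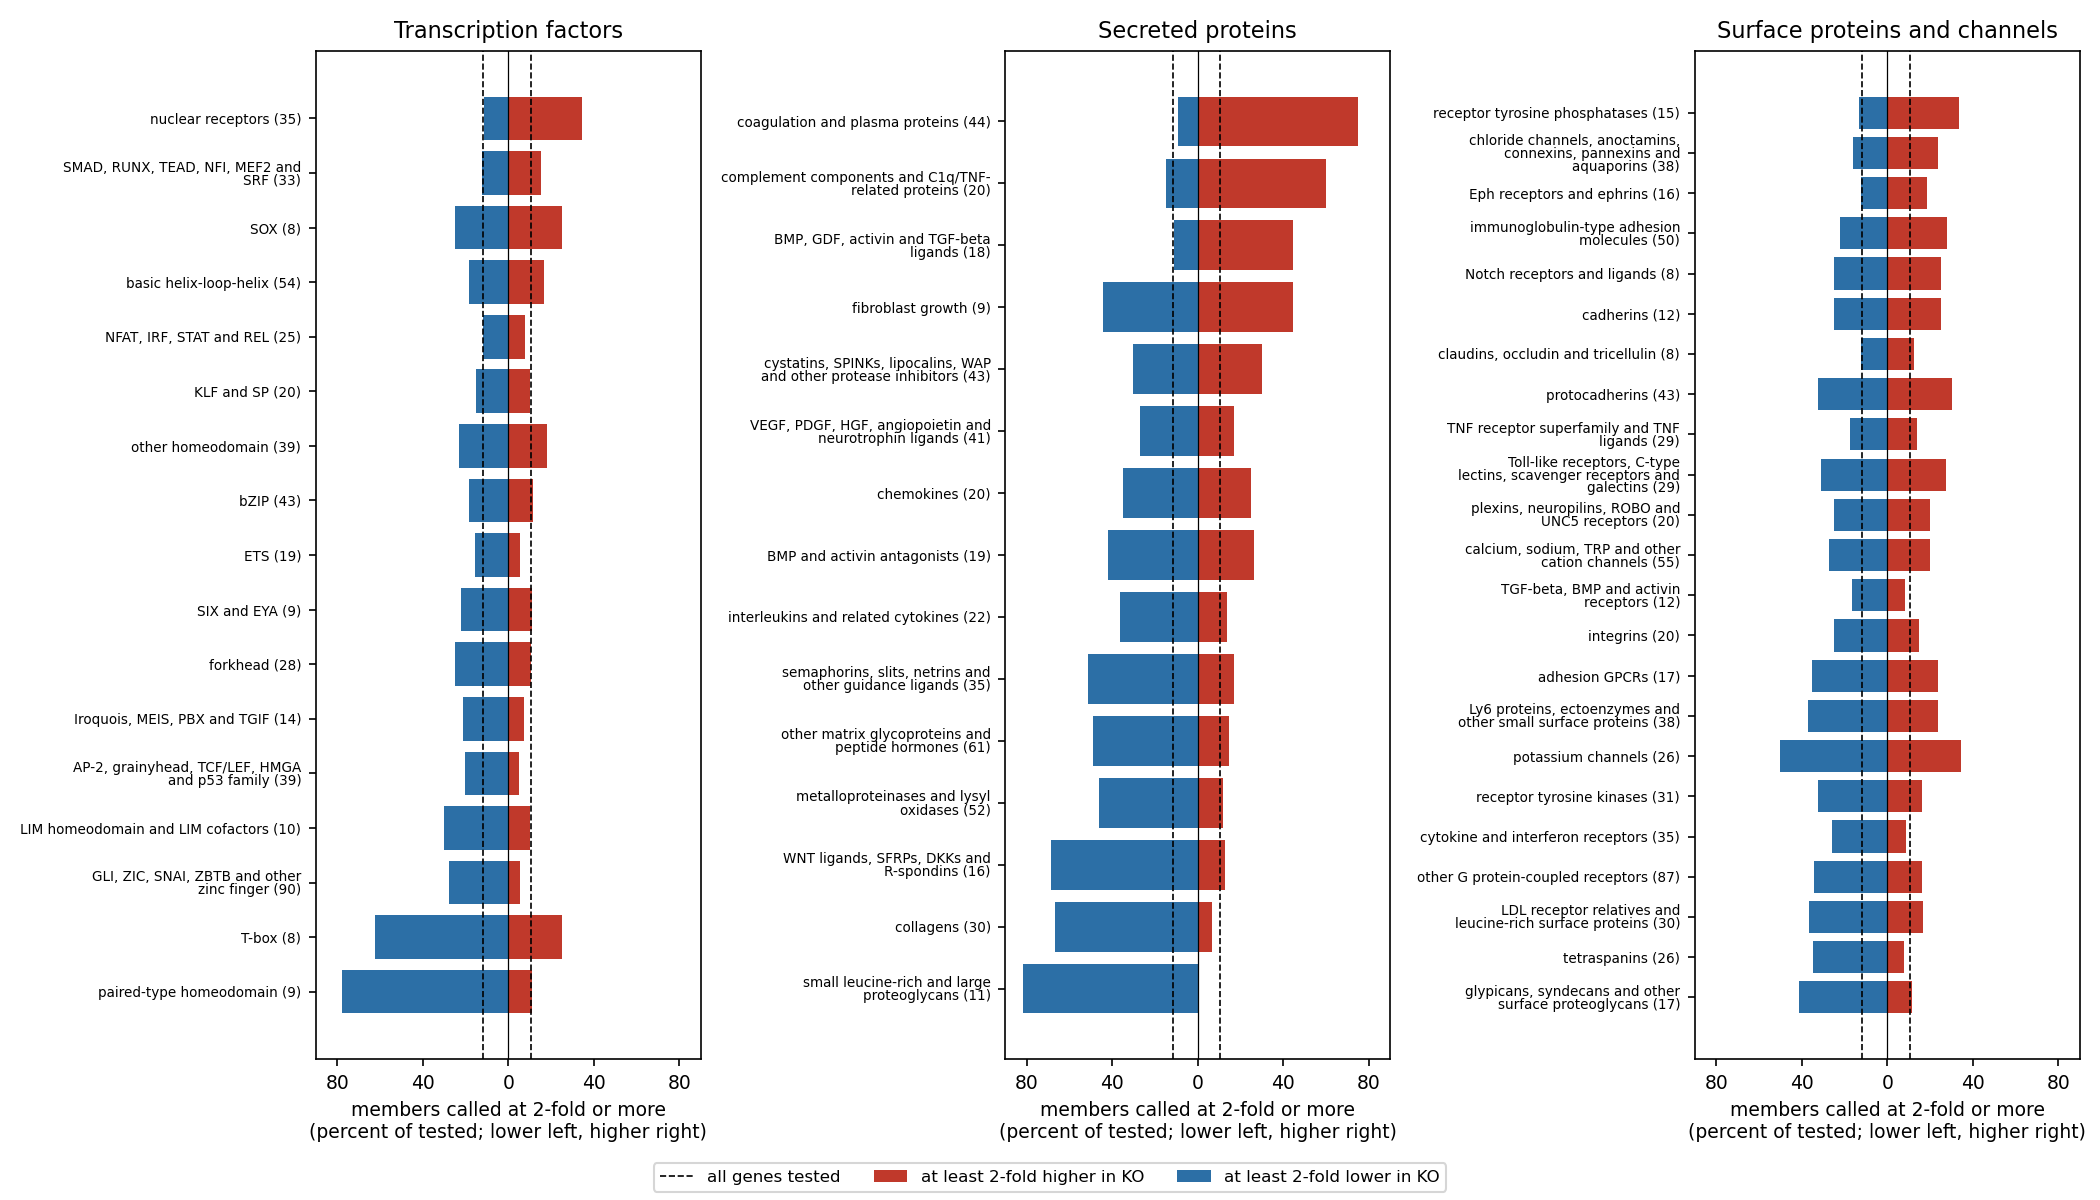
Percent of tested members of each gene family that were at least 2-fold higher (red, to the right) or at least 2-fold lower (blue, to the left) in KO control than in WT control libraries, for families with at least 8 tested members. Dashed lines mark the percent over all 15239 tested genes, 10.4 higher and 11.7 lower. Plasma proteins and complement components reach far to the right, and collagens, proteoglycans and WNT-related ligands far to the left.

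Transcription factors differed in both directions, and the homeodomain and basic helix-loop-helix lists each held members among the largest rises and among the deepest falls. Barhl2, a homeodomain factor known from the developing nervous system, had 1152, 1077, 1060 and 1133 normalized counts in KO control libraries, against 2.56, 5.45, 3.14 and 6.47 in WT control libraries (log2 difference 7.74 ± 0.17). Tal1, a basic helix-loop-helix factor of blood formation, had 114.1, 110.6, 128 and 108.3 in KO control libraries and 0 in all 4 WT control libraries. With a floor of 3 reads over the WT group, Tal1 was at least 159-fold higher in KO. Onecut2, a cut-homeodomain factor of liver and bile duct development, had 4927, 5094, 5103 and 5808 in KO control libraries, against 181, 187.2, 155.8 and 223.1 in WT control libraries (4.81 ± 0.10). For all 3 genes the lowest KO library stood far above the highest WT library. Plagl1, an imprinted zinc finger factor, averaged 626 ± 46.7 in KO control and 22.3 ± 4.20 in WT control, and Ebf3, a factor of the early B-cell factor family, averaged 1065 ± 72.2 in KO control and 59.1 ± 8.84 in WT control.

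The 5 deepest falls among the listed transcription factors, HOX genes aside, were those of Tshz3, Pknox2, Twist1, Tbx18 and Zic1. Their log2 differences ran from -5.02 to -4.63, and Hoxb2, described below with the HOX genes, stood at -4.70. Twist1, a basic helix-loop-helix factor of mesenchyme, had 2.62, 3.65, 2.39 and 7.6 normalized counts in KO control libraries, against 119.5, 126.3, 115 and 133.6 in WT control libraries (log2 difference -4.72 ± 0.26). Snai1, a zinc finger repressor known for its role in epithelial to mesenchymal transition, averaged 7.61 ± 3.49 in KO control and 176 ± 10.5 in WT control (-4.48 ± 0.24). Prrx1, a paired-type homeodomain factor of limb and connective tissue, averaged 73.9 ± 17.4 in KO control and 1629 ± 44.2 in WT control (-4.48 ± 0.14). The KO libraries lay below the WT libraries for each of these genes. The highest adjusted p in limma among the 10 listed transcription factors with the largest rises and falls was 2.22e-11.

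**Figure D2:**
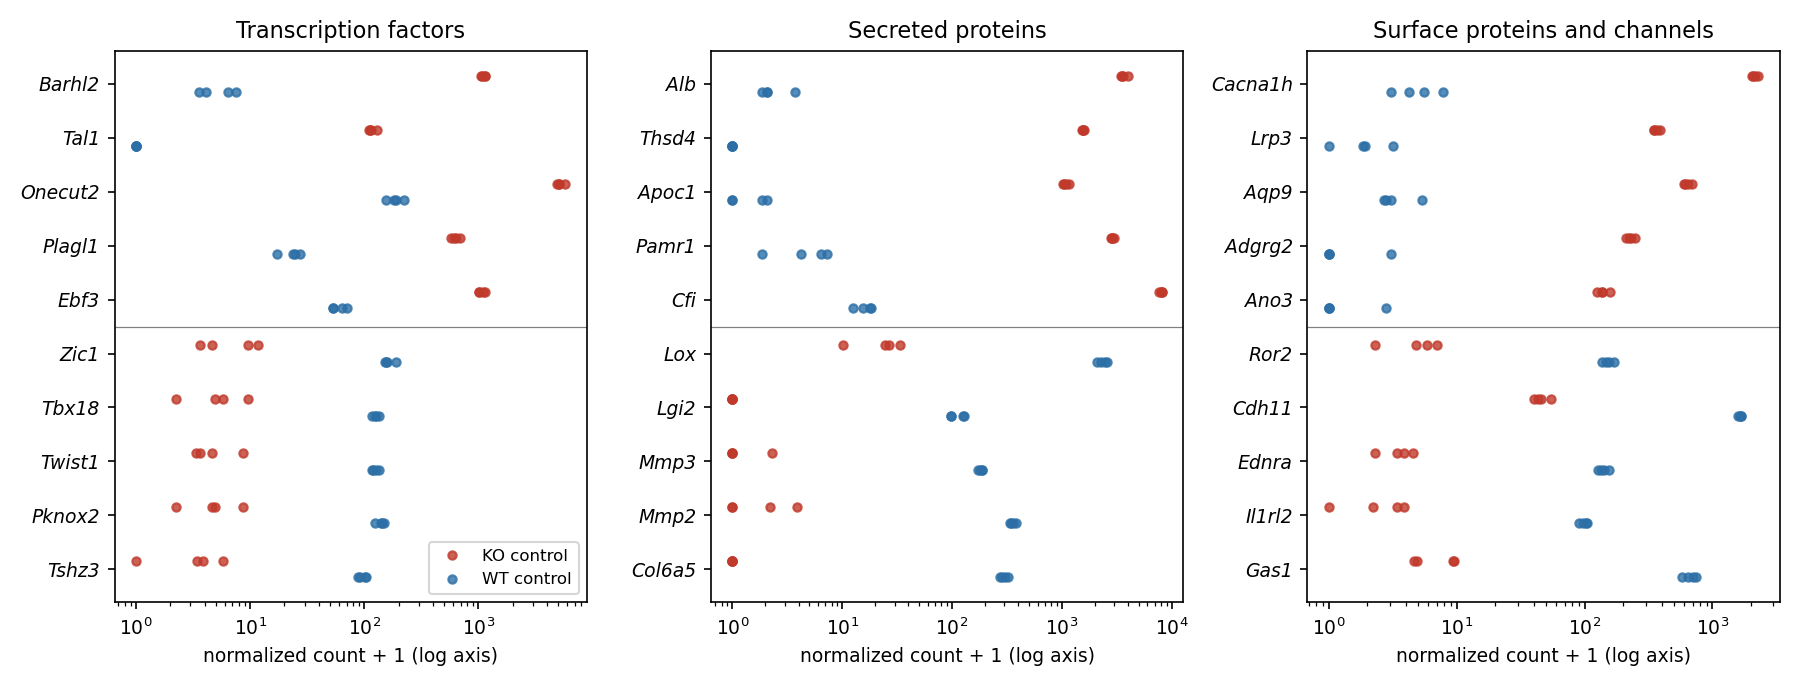
Normalized counts plus 1 (log axis) of the 5 largest rises and 5 largest falls among listed transcription factors (without HOX genes), secreted proteins and surface proteins. Each point is 1 library, with the 4 KO control libraries drawn above the 4 WT control libraries for each gene. In every row the KO points and the WT points form separate clusters, and genes with points at 1 had no reads.

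By family, the nuclear receptors leaned upward and the T-box and paired-type homeodomain factors downward. Of 35 tested nuclear receptors (47 in the list), 12 were at least 2-fold higher and 4 lower in KO, with a median log2 difference of 0.45, against -0.01 over all 15239 genes. Thrb, the thyroid hormone receptor that prevails in liver, had 234.8, 249.1, 259.6 and 247.9 in KO control libraries, against 32.44, 26.35, 28.23 and 21.56 in WT control libraries (3.16 ± 0.12). Ppara, the fatty acid receptor of the fasting liver, averaged 132 ± 12.6 in KO control and 10.3 ± 3.27 in WT control (3.61 ± 0.19), and Nr5a2, a regulator of bile acid genes, averaged 145 ± 17.3 in KO control and 14.7 ± 5.06 in WT control (3.27 ± 0.18). Hnf4a, a nuclear receptor central to hepatocyte identity and chosen after its values were seen, averaged 9993 ± 135 in KO control and 1810 ± 63.1 in WT control (2.46 ± 0.03).

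Of 8 tested T-box factors (16 in the list), 5 were at least 2-fold lower and 2 higher in KO, with a median log2 difference of -1.66. Tbx15, a factor of skeletal and adipose development, averaged 16.6 ± 6.09 in KO control and 342 ± 21.6 in WT control, and Eomes, known from the early embryo and from lymphocytes, averaged 16.1 ± 3.39 in KO control and 63.9 ± 5.56 in WT control. Of 9 tested paired-type homeodomain factors (31 in the list), 7 were at least 2-fold lower and 1 higher, with a median of -1.92. Among the 90 tested zinc finger factors of the GLI, ZIC, SNAI and ZBTB group, 25 were at least 2-fold lower and 5 higher, while their median was -0.04. That median lay near 0, and the large falls formed a tail.

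In other factor families large rises and falls stood side by side, and in some the share past 2-fold lay near the 22.2% of all tested genes. Of 8 tested SOX factors 2 were at least 2-fold higher and 2 lower (50%). Sox9, a marker of bile duct and progenitor cells, had 1819, 1921, 1817 and 1887 in KO control libraries, against 329.5, 346.1, 313.6 and 380.5 in WT control libraries (2.44 ± 0.06), while Sox12, of the SOXC group, averaged 12.9 ± 4.23 in KO control and 274 ± 29.9 in WT control (-4.36 ± 0.16). Of 28 tested forkhead factors 3 were at least 2-fold higher and 7 lower (35.7%). Foxa3, a hepatocyte factor, averaged 240 ± 10.5 in KO control and 18.2 ± 2.54 in WT control. Foxs1, of pericytes and smooth muscle, averaged 7.68 ± 1.92 in KO control and 127 ± 9.07 in WT control. Of 19 tested ETS factors 1 was at least 2-fold higher and 3 lower (21.1%). That 1 was Ets2, a factor downstream of RAS signalling and the most abundant of the ETS factors named here, with 22267, 22500, 22012 and 22310 in KO control libraries, against 7046, 6893, 7286 and 7375 in WT control libraries (1.64 ± 0.03). Spi1, the myeloid ETS factor PU.1, averaged 51.0 ± 7.42 in KO control and 225 ± 8.21 in WT control.

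Of 43 tested bZIP factors 5 were at least 2-fold higher and 8 lower (30.2%, against 22.2% of all tested genes). Creb3l1, an endoplasmic reticulum factor of collagen-secreting cells, averaged 69.5 ± 11.7 in KO control and 1463 ± 112 in WT control (-4.39 ± 0.12). Of 20 tested KLF and SP factors 2 were higher and 3 lower (25%). Klf15, a factor of fasting metabolism, averaged 666 ± 36.3 in KO control and 48.8 ± 7.79 in WT control (3.75 ± 0.10). Of 54 tested basic helix-loop-helix factors 9 were higher and 10 lower (35.2%). Of 39 tested factors of the AP-2, TCF/LEF and p53 group 2 were higher and 8 lower (25.6%). Lef1 and Tcf7l1, which act at WNT target genes, were lower in KO by log2 differences of -1.86 ± 0.15 and -2.77 ± 0.16. Among 7 tested GATA factors and partners none was at least 2-fold higher and 1 (14.3%), Zfpm2, was lower (-1.04 ± 0.05).

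The genes of the HOX clusters, which set positional identity along the body axis, were lower in KO in every cluster that could be tested. These genes were chosen for description after their values were seen. All 7 tested Hoxa genes, all 8 Hoxb genes, all 4 Hoxc genes and the 1 Hoxd gene tested were at least 2-fold lower in KO. Over all tested genes 11.7% were. The log2 differences ran from -4.70 for Hoxb2 to -1.78 for Hoxa10. No Hoxa, Hoxc or Hoxd gene would have passed the filter in the KO control libraries alone, where their means were at most 7.90. Neither would Hoxb2, Hoxb4 and Hoxb7, with KO control means of 3.08, 7.62 and 9.73. The filter thus favoured falls among all of these genes. Hoxb9 was the most abundant, at 48.7 ± 4.14 normalized counts in KO control and 1042 ± 25.0 in WT control (-4.40 ± 0.07), and Hoxb8 averaged 26.9 ± 7.37 in KO control and 358 ± 15.8 in WT control (-3.73 ± 0.18). Most Hoxa genes were near the filter, such as Hoxa10 at 4.91 ± 2.48 in KO control and 19.3 ± 7.88 in WT control, whereas Hoxa3 averaged 7.90 ± 1.75 in KO control and 68.8 ± 7.29 in WT control. Overlapping transcripts within these clusters may share reads, and whether the counting used strand is not given in the sources used here.

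Secreted proteins gave the largest differences of all, with plasma and complement proteins higher and matrix proteins lower in KO. Of 44 tested coagulation and plasma proteins (69 in the list), 33 were at least 2-fold higher in KO and 4 lower, with a median log2 difference of 3.13. Alb, the gene of serum albumin, had 3616, 3977, 3496 and 3464 normalized counts in KO control libraries, against 0.85, 2.73, 1.05 and 1.08 in WT control libraries. All WT values were 1 to 3 reads, and the log2 difference was 10.61 ± 0.33. Apoc1, an apolipoprotein of triglyceride-rich particles, had 1090, 1164, 1040 and 1014 in KO control libraries, against 0.85, 0, 0 and 1.08 in WT control libraries. The Apoc1 ratio was 2229, with a 95% counting interval from 617 to 18412. Apcs, serum amyloid P component, had 394.8, 392.5, 370.9 and 376.1 in KO control libraries and 0 in all WT control libraries, which makes it at least 530-fold higher in KO.

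Of 20 tested complement components and C1q-related proteins (48 in the list), 12 were at least 2-fold higher and 3 lower in KO, with a median of 1.48. Cfi, the protease that inactivates C3b, had 8039, 8089, 8130 and 7715 in KO control libraries, against 17.07, 14.54, 11.5 and 17.24 in WT control libraries (8.97 ± 0.18). Cfb, the protease of the alternative pathway, averaged 8634 ± 215 in KO control and 333 ± 21.7 in WT control (4.70 ± 0.05). Both genes were abundant in KO and neither was at 0 in WT. Vtn, vitronectin, averaged 58.7 ± 11.3 in KO control, against a single WT library with reads, for a ratio of 124 with a 95% counting interval from 33.9 to 1029.

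The promoters of some genes with large rises carried letters of the kind bound by the hepatocyte nuclear factor HNF4, whose gene Hnf4a is given above. Windows from 250 bases before to 50 bases after the start were available from RefSeq (GRCm38.p6) for 10228 of 13082 tested protein-coding genes. A gene could have several windows, and a match in any of them counted. The letters CAAAGTCCA, an HNF4 site, were found on either strand for 10 of 951 genes at least 2-fold higher in KO (1.05%). They were found for 4 of 1122 genes at least 2-fold lower (0.357%) and for 51 of all 10228 genes (0.499%). Among genes at least 16-fold higher they were found for 6 of 139 genes (4.32%), of which 3 are the neighbouring genes Pilra, Pilrb1 and Pilrb2. These are descriptions of letters in a window, and the genes compared were chosen by their difference. Shares of other letters also differed. TATAAA was found for 17.99% of genes at least 16-fold higher, 18.52% of genes at least 16-fold lower and 8.94% of all 10228 genes. For GGGCGG these shares were 47.48%, 56.79% and 68.2%, and for TGANTCA, where N is any base, 8.633%, 12.96% and 6.717%. Whether HNF4 had a part in the rises was not tested. The windows of 2 genes with the HNF4 letters are printed 5′ to 3′ on the gene's strand, with the match in capitals. Cyp2c68 lies on chr19:39741052-39741351 and Pipox on chr11:77893823-77894122, both on the minus strand.
Cyp2c68: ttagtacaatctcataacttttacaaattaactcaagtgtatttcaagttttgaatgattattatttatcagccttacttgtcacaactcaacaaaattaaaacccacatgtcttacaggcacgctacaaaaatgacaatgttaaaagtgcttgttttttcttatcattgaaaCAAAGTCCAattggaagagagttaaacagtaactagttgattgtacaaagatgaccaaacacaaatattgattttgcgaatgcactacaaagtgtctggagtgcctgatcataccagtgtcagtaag
Pipox: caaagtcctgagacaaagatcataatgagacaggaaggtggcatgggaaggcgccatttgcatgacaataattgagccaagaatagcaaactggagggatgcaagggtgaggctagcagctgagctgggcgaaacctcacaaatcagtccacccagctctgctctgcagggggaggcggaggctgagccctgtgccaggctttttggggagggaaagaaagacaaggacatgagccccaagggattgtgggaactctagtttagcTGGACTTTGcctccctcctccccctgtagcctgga

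The match began 77 bases before the start in Cyp2c68 and 16 bases after it, on the opposite strand, in Pipox. Cyp2c68, a cytochrome P450 of the 2c group, averaged 512 ± 25.8 normalized counts in KO control and 0.668 ± 0.867 in WT control (log2 difference 8.41 ± 0.33). Pipox, a peroxisomal oxidase, averaged 205 ± 20.8 in KO control and 7.81 ± 2.21 in WT control (4.58 ± 0.18). Both were chosen after their values and windows were seen.

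Collagens and proteoglycans were lower in KO. Of 30 tested collagens (44 in the list) 20 were at least 2-fold lower in KO and 2 higher, with a median log2 difference of -2.41, and of 11 tested proteoglycans (28 in the list) 9 were lower and none higher, with a median of -3.30. Col3a1, a fibrillar collagen of soft connective tissue, had 308.2, 301.4, 442.6 and 349.5 normalized counts in KO control libraries, against 36460, 34656, 35467 and 35172 in WT control libraries (-6.67 ± 0.09). Col6a5, a chain of beaded-filament collagen, had 0 in all KO control libraries, against 303.1, 283.4, 275 and 321.2 in WT control libraries, so it was at least 342-fold lower in KO. Bgn, the proteoglycan biglycan, averaged 456 ± 75.9 in KO control and 8308 ± 250 in WT control (-4.20 ± 0.10). The highest KO library of each gene lay far below the lowest WT library.

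The promoter windows of Col3a1 and Twist1 are given as examples of genes that fell 16-fold or more. Both were chosen after their values were seen. Of the genes with such falls 162 had a window, and none held the HNF4 letters. As only 0.499% of all 10228 genes had the letters, their absence among 162 genes shows no difference. Capitals mark the letters TATAAA in both and, in Twist1, also GGGCGG on the opposite strand. TATAAA was found in any window of 914 of the 10228 genes (8.94%), and GGGCGG in any window of 6980 (68.2%). Col3a1 lies on chr1:45311288-45311587 and Twist1 on chr12:33957421-33957720, both on the plus strand of GRCm38.p6.
Col3a1: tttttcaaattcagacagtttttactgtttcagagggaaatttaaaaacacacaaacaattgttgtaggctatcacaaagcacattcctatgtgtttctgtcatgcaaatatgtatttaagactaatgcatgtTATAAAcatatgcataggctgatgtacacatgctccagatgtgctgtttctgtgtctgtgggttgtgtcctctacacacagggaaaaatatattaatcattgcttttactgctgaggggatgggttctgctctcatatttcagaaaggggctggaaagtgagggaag
Twist1: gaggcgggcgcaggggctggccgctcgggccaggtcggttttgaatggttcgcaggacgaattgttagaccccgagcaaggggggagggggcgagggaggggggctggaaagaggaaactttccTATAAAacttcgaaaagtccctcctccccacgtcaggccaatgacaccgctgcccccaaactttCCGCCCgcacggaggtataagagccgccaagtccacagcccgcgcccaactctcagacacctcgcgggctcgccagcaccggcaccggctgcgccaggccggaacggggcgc

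Of 52 tested metalloproteinases and lysyl oxidases (104 in the list), 24 were at least 2-fold lower and 6 higher. Mmp2, a gelatinase, had 0, 1.22, 0 and 2.85 in KO control libraries, against 377.3, 333.4, 359.6 and 342.7 in WT control libraries (-7.69 ± 0.42). Mmp3, stromelysin, had reads in 1 of the KO control libraries and averaged 182 ± 6.96 in WT control, a WT to KO ratio of 633 with a 95% counting interval from 113 to 25024. Lox, which cross-links collagen, averaged 22.7 ± 9.73 in KO control and 2354 ± 207 in WT control (-6.76 ± 0.29). Pamr1, a secreted protein of the same list, went the other way, with 2861, 2786, 2869 and 2980 in KO control libraries, against 0.85, 5.45, 6.27 and 3.23 in WT control libraries (9.36 ± 0.46). Thsd4, a matrix protein of fibrillin microfibrils, had 1575, 1570, 1558 and 1510 in KO control libraries and 0 in all WT control libraries, at least 2148-fold higher in KO. Within the matrix lists the falls were thus more numerous, and single members showed rises as large as those of plasma proteins.

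Secreted signalling proteins changed in both directions. Of 18 tested BMP, GDF, activin and TGF-beta ligands (38 in the list) 8 were at least 2-fold higher in KO and 2 lower. Bmp7 had 225.6, 261.3, 265.6 and 232.7 in KO control libraries, against 0, 0, 2.09 and 0 in WT control libraries, a ratio of 511 with a 95% counting interval from 141 to 4225. Bmp6, an iron-regulating ligand in liver, averaged 167 ± 12.2 in KO control and 1.02 ± 0.857 in WT control (6.49 ± 0.32), and Gdnf, a ligand of the RET receptor, averaged 221 ± 6.20 in KO control and 1.98 ± 0.930 in WT control (6.27 ± 0.27). Among their antagonists 8 of 19 tested were at least 2-fold lower and 5 higher. Grem1, a BMP antagonist of stromal cells, averaged 91.4 ± 22.8 in KO control and 1688 ± 72.1 in WT control (-4.22 ± 0.14), and Fstl1, follistatin-like 1, averaged 177 ± 14.95 in KO control and 3905 ± 206 in WT control (-4.46 ± 0.06).

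Of 16 tested WNT ligands, SFRPs, DKKs and R-spondins (35 in the list) 11 were at least 2-fold lower in KO and 2 higher, with a median log2 difference of -2.21. Sfrp2, which binds WNT proteins outside the cell, had 20.99, 20.66, 27.51 and 24.69 in KO control libraries, against 972.3, 933.9, 984.9 and 1017 in WT control libraries (-5.33 ± 0.11). Wnt5a, a ligand of the beta-catenin-independent branch, averaged 39.0 ± 9.42 in KO control and 521 ± 32.1 in WT control (-3.74 ± 0.14), and its receptor Ror2 averaged 3.99 ± 1.99 in KO control and 152 ± 14.4 in WT control (-5.05 ± 0.30). Rspo3, which amplifies WNT signals and is known from the central vein of the liver lobule, was one of the 2 rises, at 567 ± 26.1 in KO control and 72.7 ± 9.41 in WT control (2.95 ± 0.09).

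Of 35 tested guidance ligands 18 were at least 2-fold lower and 6 higher. Slit3 averaged 18.6 ± 4.38 in KO control and 496 ± 8.46 in WT control (-4.70 ± 0.14), and Thbs2, a thrombospondin, averaged 69.0 ± 11.5 in KO control and 2691 ± 50.9 in WT control (-5.28 ± 0.09). Of 9 tested fibroblast growth factors and binding proteins 4 were at least 2-fold higher and 4 lower. Fgf1 averaged 1510 ± 43.5 in KO control and 304 ± 8.57 in WT control (2.31 ± 0.04), whereas Fgf7, a mesenchymal ligand for epithelial receptors, averaged 11.8 ± 5.35 in KO control and 99.3 ± 17.3 in WT control (-3.07 ± 0.26). Of 41 tested growth factors of the VEGF, PDGF and neurotrophin group 7 were higher and 11 lower. Pdgfd had 358.1, 418, 403.1 and 352.4 in KO control libraries, against 0, 0.91, 0 and 0 in WT control libraries, a ratio of 1585 with a 95% counting interval from 284 to 62661, and Ptn, pleiotrophin, averaged 1.53 ± 1.15 in KO control and 71.4 ± 4.20 in WT control (-4.99 ± 0.33).

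Of 20 tested chemokines 5 were at least 2-fold higher in KO and 7 lower. Ccl7, a monocyte attractant, had 6070, 6016, 6036 and 5076 in KO control libraries, against 1054, 1030, 1038 and 928 in WT control libraries (2.51 ± 0.10), while the fractalkine gene Cx3cl1 averaged 178 ± 10.1 in KO control and 1012 ± 65.7 in WT control (-2.50 ± 0.08). Of 22 tested interleukins and related cytokines 3 were higher and 8 lower, among them Tslp at 3.12 ± 0.713 in KO control and 63.4 ± 11.6 in WT control. Protease inhibitors had 13 members at least 2-fold higher and 13 lower of 43 tested. Serpind1, heparin cofactor II, averaged 470 ± 15.3 in KO control and 3.20 ± 1.77 in WT control (6.93 ± 0.25), and Serpinf1, pigment epithelium-derived factor, averaged 175 ± 25.3 in KO control and 3762 ± 102 in WT control (-4.43 ± 0.08).

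Among surface proteins the epithelial cadherin rose in KO, and several receptors and adhesion molecules known from mesenchyme fell. Cdh1, the epithelial cadherin, had 19757, 19919, 19410 and 19216 normalized counts in KO control libraries, against 2289, 2455, 2301 and 2133 in WT control libraries (log2 difference 3.09 ± 0.04). Cdh11, a cadherin of fibroblasts and osteoblasts, had 39.35, 42.53, 53.83 and 44.64 in KO control libraries, against 1682, 1580, 1641 and 1661 in WT control libraries (-5.16 ± 0.07). The genotypes did not overlap for either gene, and of 12 tested cadherins (23 in the list) 3 were at least 2-fold higher and 3 lower. The rise of Cdh1 was not shared by other epithelial lists as a whole. Of 8 tested claudins, occludin and tricellulin 1 was at least 2-fold higher and 1 lower (25%, median log2 difference -0.18). Of 17 tested keratins and other intermediate filament proteins 2 were higher and 4 lower (35.3%, median -0.65). Over all tested genes the share was 22.2%. Gas1, a membrane-anchored partner of hedgehog receptors, had 3.93, 3.65, 8.37 and 8.55 in KO control libraries, against 638.5, 578.7, 742.3 and 706 in WT control libraries (-6.63 ± 0.22), the deepest fall among surface proteins.

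The largest rise among surface proteins was that of Cacna1h, a low-voltage calcium channel subunit, which had 2087, 2167, 2047 and 2282 in KO control libraries, against 6.83, 4.54, 2.09 and 3.23 in WT control libraries (8.78 ± 0.22). Aqp9, a water and glycerol channel of hepatocytes, averaged 637 ± 44.9 in KO control and 2.48 ± 1.23 in WT control (7.57 ± 0.16), and Lrp3, an LDL receptor relative, averaged 364 ± 20.2 in KO control and 0.980 ± 0.890 in WT control (7.64 ± 0.31). Of 55 tested cation channels of the calcium, sodium and TRP groups 11 were at least 2-fold higher and 15 lower, and Cacna1c, the cardiac-type calcium channel subunit, averaged 19.0 ± 9.08 in KO control and 378 ± 21.7 in WT control (-4.34 ± 0.21). Of 26 tested potassium channels and their partners (86 in the list) 9 were higher and 13 lower. Of 38 tested chloride channels, anoctamins, connexins and aquaporins 9 were higher and 6 lower, with Gjb2, the liver gap junction protein connexin 26, at 53.1 ± 2.24 in KO control and 0 in all WT control libraries, at least 73.4-fold higher in KO.

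Of 31 tested receptor tyrosine kinases 5 were at least 2-fold higher in KO and 10 lower. Flt4, the receptor for lymphatic VEGF ligands, had 2450, 2520, 2564 and 2561 in KO control libraries, against 46.95, 43.61, 47.05 and 44.19 in WT control libraries (5.76 ± 0.05), and Ntrk3, a neurotrophin receptor, averaged 171 ± 18.7 in KO control and 2.20 ± 1.36 in WT control (5.83 ± 0.27). Receptor tyrosine phosphatases, relatives of PTP1B that span the membrane, had 5 members at least 2-fold higher and 2 lower of 15 tested, with a median log2 difference of 0.52. Ptprn averaged 2974 ± 114 in KO control and 710 ± 22.95 in WT control (2.07 ± 0.04), Ptprf averaged 7917 ± 145 in KO control and 3253 ± 57.3 in WT control (1.28 ± 0.03), and Ptprb averaged 1805 ± 18.4 in KO control and 4160 ± 144 in WT control (-1.20 ± 0.03). The transmembrane phosphatases thus differed in both directions by amounts well beyond the spread between libraries.

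Of 87 tested G protein-coupled receptors outside the adhesion group (302 in the list) 14 were at least 2-fold higher and 30 lower. Chrm1, a muscarinic receptor, averaged 109 ± 9.48 in KO control and 1.19 ± 0.955 in WT control (5.78 ± 0.32), and Adra1a, an alpha-adrenergic receptor, had a ratio of 204 with a 95% counting interval from 56.04 to 1691. Ednra, an endothelin receptor of smooth muscle, averaged 2.55 ± 0.953 in KO control and 138 ± 11.3 in WT control (-5.34 ± 0.26). Of 17 tested adhesion G protein-coupled receptors 4 were higher and 6 lower. Of 8 tested Notch receptors and ligands 2 were higher and 2 lower, with the ligand Jag2 at 591 ± 15.95 in KO control and 60.6 ± 7.56 in WT control (3.27 ± 0.09) and the receptor Notch3, known from pericytes, at 25.4 ± 2.67 in KO control and 560 ± 28.4 in WT control (-4.42 ± 0.11).

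Immune receptors were divided as well. Of 29 tested Toll-like receptors, lectins, scavenger receptors and galectins 8 were at least 2-fold higher and 9 lower. Tlr1, a receptor for bacterial lipopeptides, averaged 509 ± 35.2 in KO control and 17.5 ± 2.85 in WT control (4.80 ± 0.29), and Mrc2, a collagen-internalizing lectin, averaged 55.1 ± 10.3 in KO control and 1117 ± 48.3 in WT control (-4.33 ± 0.10). Of 35 tested cytokine and interferon receptors 3 were higher and 9 lower (34.3%). Of 29 tested TNF receptors and ligands 4 were higher and 5 lower (31.0%), against 22.2% of all tested genes. Il15ra averaged 110 ± 5.52 in KO control and 7.29 ± 2.52 in WT control (3.79 ± 0.22), Il13ra1 averaged 11.3 ± 4.39 in KO control and 144 ± 13.5 in WT control (-3.63 ± 0.23), and the death receptor gene Fas averaged 778 ± 14.8 in KO control and 183 ± 16.1 in WT control (2.09 ± 0.06). Of 20 tested integrins 3 were higher and 5 lower, with Itga7, a laminin receptor, at 2.07 ± 0.05 and Itga6, another laminin receptor, at -1.95 ± 0.05 on the log2 scale.

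Inside the cell, esterases and oxidoreductases held more large rises than falls in KO, and enzymes of cyclic nucleotides more falls than rises. Of 21 tested carboxylesterases and phospholipases A2 (45 in the list) 11 were at least 2-fold higher and 3 lower, with a median log2 difference of 1.08, and of 44 tested aldo-keto reductases and alcohol or retinol dehydrogenases 10 were higher and 3 lower. Akr1c14, a steroid dehydrogenase, had 2585, 2452, 2287 and 2500 in KO control libraries, against 181.8, 193.5, 183 and 211.2 in WT control libraries (3.67 ± 0.06). Of 29 tested phosphodiesterases and cyclases (44 in the list) 16 were at least 2-fold lower and 4 higher, with a median of -1.53. Pde1a averaged 10.3 ± 3.68 in KO control and 352 ± 19.7 in WT control (-5.03 ± 0.19), Pde5a averaged 4.70 ± 2.49 in KO control and 173 ± 22.7 in WT control (-5.01 ± 0.27), and Adcy3 had a WT to KO ratio of 79.96 with a 95% counting interval from 27.1 to 390.

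The aldehyde dehydrogenases had 4 members at least 2-fold higher and 3 lower of 15 tested. The paralogs Aldh1l1 and Aldh1l2, which encode the cytosolic and the mitochondrial enzyme that oxidize formyl-tetrahydrofolate, moved in opposite directions. Aldh1l1 had 666.3, 708.5, 623.3 and 655.4 in KO control libraries, against 55.49, 59.05, 55.41 and 75.44 in WT control libraries (3.42 ± 0.09). Aldh1l2 had 78.7, 59.54, 88.53 and 85.48 in KO control libraries, against 1764, 1699, 1824 and 1754 in WT control libraries (-4.49 ± 0.12). The cytosolic member was thus the more abundant of the pair in normalized counts in KO, and the mitochondrial one in WT.

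RAB GTPases, which direct vesicle traffic, held few large differences, whereas the cytoskeletal lists stood somewhat above the 22.2% of all tested genes. Of 48 tested RAB GTPases 2 were at least 2-fold higher and 3 lower (10.4%). Rab38, which acts in the making of pigment granules, averaged 336 ± 22.1 in KO control and 68.5 ± 8.54 in WT control (2.29 ± 0.10). Of 33 tested tubulins, actins, tropomyosins and septins 4 were higher and 6 lower (30.3%). The smooth muscle actin gene Actg2 averaged 1.41 ± 0.332 in KO control and 95.1 ± 14.3 in WT control (-5.32 ± 0.30), and Tpm2 averaged 65.4 ± 8.38 in KO control and 1732 ± 150 in WT control (-4.71 ± 0.08). Myosins and kinesins had 9 higher and 10 lower of 67 tested (28.4%), and Myh14, a nonmuscle myosin of epithelia, averaged 477 ± 31.8 in KO control and 8.98 ± 3.29 in WT control (5.64 ± 0.31). Of 22 tested S100 proteins and annexins 2 were higher and 4 lower (27.3%), with S100a4 at -2.73 ± 0.06 and Anxa1 at -1.85 ± 0.03 on the log2 scale.

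Absolute levels put these differences in proportion. Because levels are counts per kilobase of exon, genes of different length can be compared on this scale. Apart from ribosomal protein genes, the 5 genes with the highest level in KO control were Eef1a1, Spp1, Ftl1, Sprr1a and Hsp90ab1, and in WT control Eef1a1, Spp1, Ptma, Lgals1 and Hsp90ab1. Spp1, the secreted matrix and cytokine protein osteopontin, reached a level of 15950 ± 299 ppm in KO control and 7569 ± 190 in WT control. Sprr1a, a cornified envelope protein of stressed epithelia, reached 5854 ± 331 ppm in KO control and 403 ± 17.2 in WT control, and its normalized counts gave a log2 difference of 3.91 ± 0.06. Lgals1, galectin-1, reached 2420 ± 24.3 ppm in KO control and 6566 ± 282 in WT control, with a log2 difference in counts of -1.39 ± 0.03. The translation factor gene Eef1a1 stood first in both genotypes, at 21787 ± 254 ppm in KO control and 17869 ± 390 in WT control.

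**Figure D3:**
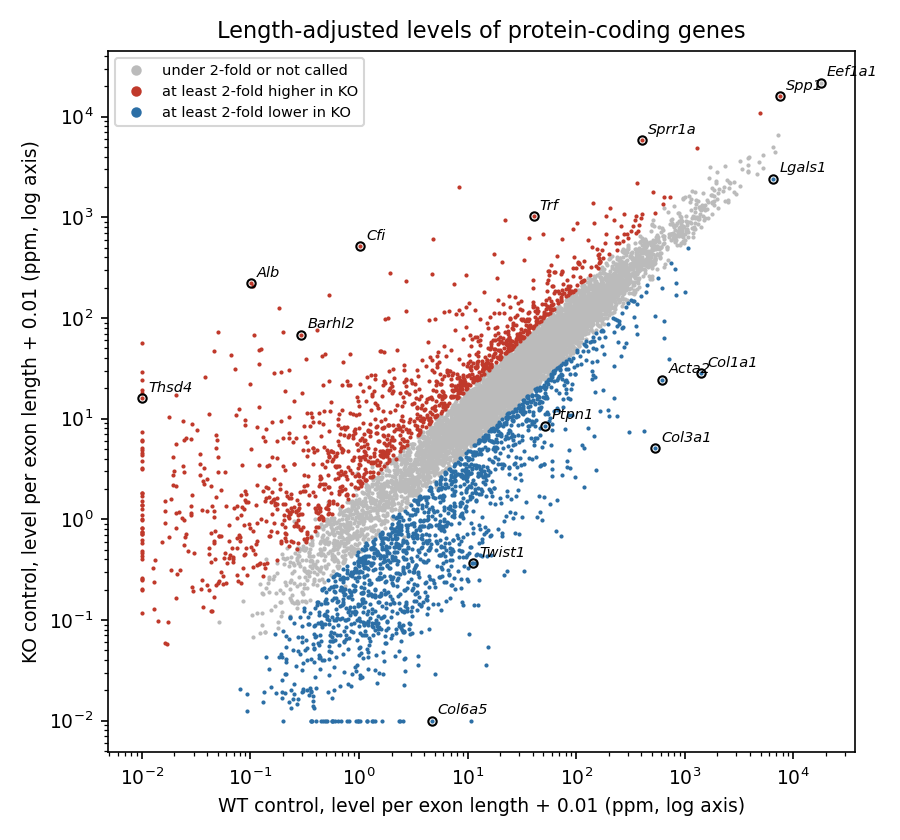
Level of each tested protein-coding gene in WT control (x axis) and KO control (y axis), as the mean of 4 libraries in ppm of length-adjusted counts plus 0.01, on log axes. Alb and Cfi lie far above the diagonal and Col3a1 far below it, while Eef1a1 lies near the diagonal.

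Large folds did not always mean high levels. Alb stood at 222 ± 13.1 ppm in KO control and 0.0905 ± 0.0559 in WT control, Cfi at 514 ± 6.11 in KO control and 1.01 ± 0.183 in WT control, and Cdh1 at 611 ± 6.29 in KO control and 74.3 ± 3.99 in WT control. Col3a1 stood at 5.10 ± 0.949 ppm in KO control and 535 ± 8.00 in WT control. Among transcription factors Ets2 reached 550 ± 9.52 ppm in KO control and 183 ± 8.46 in WT control, Barhl2 reached 68.2 ± 3.11 in KO control and 0.284 ± 0.125 in WT control, and Twist1 stood at 0.359 ± 0.220 in KO control and 11.3 ± 0.963 in WT control. On the same scale Ptpn1 stood at 8.501 ± 0.348 ppm in KO control and 51.8 ± 1.20 in WT control.

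Summed over families, the levels showed where the mass of transcripts lay. Coagulation and plasma proteins took 1.10% to 1.14% of the summed level in KO control libraries and 0.155% to 0.159% in WT control libraries, a ratio of 7.14. Complement components took 0.355% ± 0.007 in KO control and 0.119% ± 0.004 in WT control. Collagens took 0.122% to 0.126% in KO control libraries and 0.484% to 0.512% in WT control libraries, a ratio of 0.249. For these 3 families the exact permutation p was 0.0286 (two-sided), the smallest possible, and 0.0331 after Benjamini-Hochberg adjustment over 73 sums. Genes for secreted proteins as a class took 5.44% in KO control and 3.62% in WT control, of which the list that holds Spp1 gave 2.15% in KO control and 1.31% in WT control. The listed transcription factors took 1.85% in KO control and 1.71% in WT control, and surface proteins 2.96% in KO control and 3.10% in WT control. Each had the same exact permutation p.

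**Figure D4:**
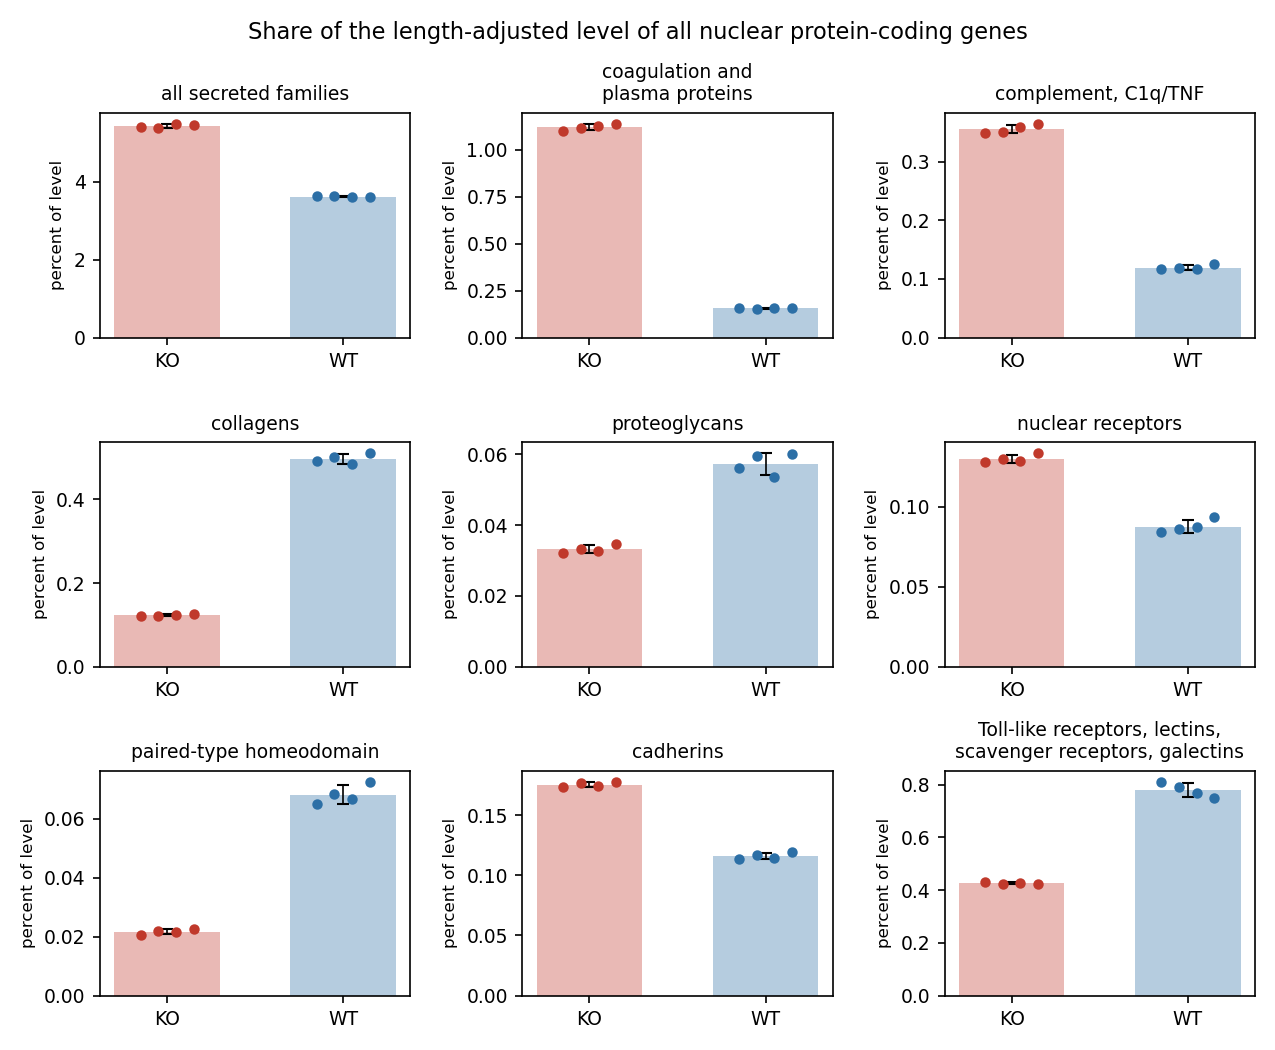
Share of the summed length-adjusted level, in percent, held by 9 gene groups in KO control (left bar of each panel) and WT control (right bar) libraries. Bars are means of 4 libraries from 0, error bars are SD and points are libraries. Plasma proteins and complement are higher in KO, and collagens higher in WT.

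Other sums differed by smaller factors than that of the plasma proteins. The paired-type homeodomain factors took 0.0217% in KO control and 0.0682% in WT control, the nuclear receptors 0.130% in KO control and 0.0876% in WT control, and the chemokines 0.505% in KO control and 0.301% in WT control, although more chemokines were at least 2-fold lower than higher. Integrins took 0.168% ± 0.002 in KO control and 0.172% ± 0.002 in WT control, with an adjusted p of 0.0632 by the exact permutation test. RAB GTPases took 0.433% in both genotypes (adjusted p 0.8, exact permutation test), and GATA factors took 0.00664% in KO control and 0.00679% in WT control (adjusted p 0.499). These p-values do not show that the sums were equal.

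Some genes were present in one genotype and nearly absent in the other. With a mean of at least 50 normalized counts in one genotype and under 5 in every library of the other, 74 genes were present in KO control only and 40 in WT control only. Of the 74 genes 71 were protein-coding, 15 belonged to the secreted lists and 10 to the surface lists, and 17 had no read in any WT control library. Of the 40 genes 38 were protein-coding, 9 belonged to the secreted and 4 to the surface lists, and 3 had no read in any KO control library. Lgi2, a secreted leucine-rich protein, was among those 3, with 0 in all KO control libraries, against 126.3, 96.3, 97.23 and 125 in WT control libraries, at least 129-fold lower in KO. The transcription factor of the lists present in KO control only was Tal1. The 3 present in WT control only were Tshz3, Gli2, which carries hedgehog signals to target genes, and Irf8, a factor of myeloid cells. Hoxb2, outside the lists, was also present in WT control only. Gli2 was chosen after its values were seen and had 3.93, 1.22, 3.59 and 4.75 in KO control libraries, against 77.68, 63.59, 74.23 and 62.51 in WT control libraries.

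Of 999 tested long noncoding RNA genes 180 were at least 2-fold higher in KO (18.0%) and 124 lower (12.4%). Over all tested genes the shares were 10.4% and 11.7%, so that of the falls lay near the share of all genes. H19, an imprinted fetal transcript, had 1.31, 2.43, 3.59 and 0 normalized counts in KO control libraries, against 113.5, 101.8, 129.6 and 103.5 in WT control libraries (-5.52 ± 0.45). Snhg18 averaged 4.18 ± 2.26 in KO control and 200 ± 27.2 in WT control (-5.37 ± 0.31), and Dnm3os, which lies within Dnm3 on the other strand, averaged 3.75 ± 2.08 in KO control and 128 ± 21.1 in WT control (-4.87 ± 0.57). The largest rises, up to a log2 difference of 8.18, were of predicted loci, which are not named here. Among the rises of genes with other names, Trp53cor1 averaged 94.0 ± 13.3 in KO control and 10.1 ± 1.22 in WT control (3.10 ± 0.18). Jpx, which lies beside Xist, and Airn, an imprinted transcript opposite Igf2r, were higher in KO by 1.24 ± 0.15 and 1.12 ± 0.13. The strand used in counting is not given in the sources used here, so reads of antisense genes such as Dnm3os and Airn and of their partners cannot be told apart.

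Some neighbouring genes differed together. With at least 5 adjacent tested protein-coding genes all at least 2-fold different in the same direction, 12 runs with 71 genes were found, 7 higher and 5 lower in KO. These runs were found after the values were seen. The Hoxb and Hoxa clusters on chromosomes 11 and 6 formed 2 of the runs, with median log2 differences of -3.49 and -2.91. On chromosome 12 Serpina10, Serpina1b, Serpina1d, Serpina1a and Serpina1c were all higher, with a median of 2.72, and on chromosome 5 a run of 6 genes from Ugt2b34 to Sult1b1 had a median of 2.41. On chromosome 8 the run from Ces2b to Ces2g had a median of 2.44. The members of the Serpina1, Ugt2b and Ces2 groups are near-identical copies whose reads the counting could split, so their separate values are uncertain. Pilra, Pilrb1 and Pilrb2, paired immune receptors on chromosome 5, were higher by 6.95 ± 0.43, 6.21 ± 0.24 and 6.06 ± 0.31, with the same caution for the last 2. On chromosome 4 a run from Tmem68 to Chchd7, 6 genes that include Lyn and Plag1, was lower with a median of -1.30. The longest run, 9 genes from Tnfrsf1b to Zfp984, lay on chromosome 4 too and was lower with a median of -1.40. It consisted mostly of Zfp zinc finger genes. Runs of 5 genes that end at Zfp971 on chromosome 2 and at Zfp874a on chromosome 13 were higher, with medians of 3.23 and 1.39.

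The median differences by chromosome were small, but calls were uneven on several chromosomes. The median log2 difference of tested genes was highest on chromosomes 9 and 13 (0.17 each). Apart from the Y chromosome it was lowest on chromosome 14 (-0.30), chromosome 4 (-0.29) and chromosome 15 (-0.23). Chromosome 4 had 523 genes called lower and 185 higher of 898 tested, and chromosome 14 had 293 lower and 114 higher of 505. Chromosome 9 had 445 called higher and 234 lower of 863, and chromosome 7 had 556 higher and 305 lower of 1141. Over all tested genes 37.8% were called higher and 39.3% lower. Of 13 tested Y-linked genes 10 were at least 2-fold lower in KO and none higher, with a median of -1.64, and several of the 13 are near-identical copies. The 4 Y-linked genes given here were chosen after their values were seen. Ddx3y, an RNA helicase, had 1114, 1176, 1092 and 1125 normalized counts in KO control libraries, against 3006, 2910, 2878 and 3058 in WT control libraries (-1.39 ± 0.03). Uty averaged 608 ± 27.4 in KO control and 1507 ± 48.0 in WT control (-1.31 ± 0.04), Kdm5d averaged 914 ± 7.62 in KO control and 2019 ± 34.7 in WT control (-1.14 ± 0.04), and Eif2s3y averaged 1174 ± 12.5 in KO control and 2637 ± 77.3 in WT control (-1.17 ± 0.04). The 4 genes were thus present in both genotypes and lower in every KO library.

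**Figure D5:**
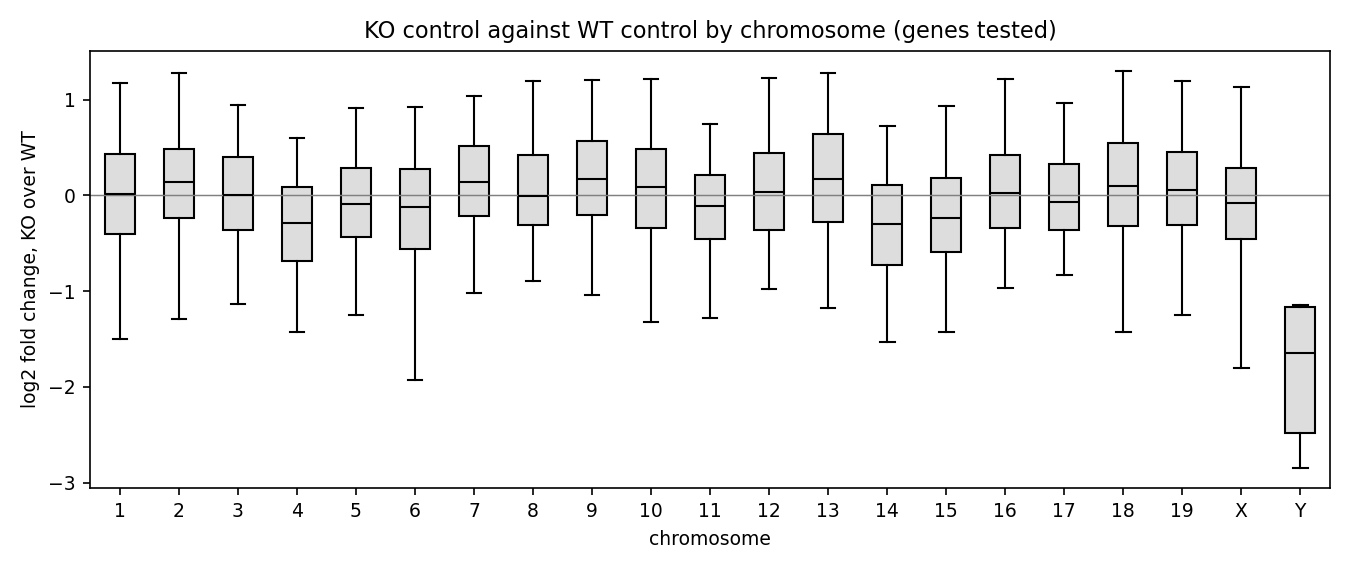
Log2 difference between KO control and WT control of tested genes on each chromosome. The line is the median, the box the quartiles and the whiskers the 10th and 90th percentiles, and the Y chromosome, with 13 genes, stands below the others.

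The same difference was measured in the libraries of palmitate-treated cells, which share no library with the controls. There 3392 genes were at least 2-fold different between KO and WT (22.3%). Of the 3378 genes at least 2-fold different in control libraries 3041 were so in the same direction under palmitate, which is 90.02% of the control list and 89.7% of the palmitate list, and none was called in the opposite direction. All 219 genes named by the rule were called in the same direction under palmitate. Most of them had been chosen as called genes with the largest differences, so such a call was likely beforehand. Both comparisons also came from the same fit with a shared estimate of spread. Alb differed by 10.61 in control and 11.52 under palmitate on the log2 scale, Twist1 by -4.72 and -4.53, Cdh1 by 3.09 and 3.04, and Col3a1 by -6.67 and -6.56. The difference between the 2 differences was itself called for 1508 genes (9.9%), 638 with a positive and 870 with a negative change under palmitate, and 56 of them changed by at least 2-fold.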

How the data were processed

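RNA of 16 libraries was measured by paired-end sequencing after depletion of ribosomal RNA. The labels' protocol speaks of FFPE samples and of low RNA quality, although the samples are cultured cells. The authors deposited 1 table of normalized counts per gene (unit: signal, counts divided by size factors), and STAR, RSEM, DESeq2 and limma are named in the submitters' processing notes. Whole reads were recovered from the steps of each library for 100% of values, within 0.1 read. IDs were matched to GENCODE vM21 on GRCm38 for exon lengths and positions (54673 of 55421 with the same version).

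Genes with at least 10 normalized counts in at least 4 libraries were fitted as log2(value + 1) in limma 3.58.1 (R 4.3.3), with 4 group means over all 16 libraries, trended and robust variances, and Benjamini-Hochberg adjustment over 15239 genes. Fold changes of low genes are understated on that scale. Calls needed an adjusted p below 0.05, and large differences also 2-fold. edgeR 4.0.16 and DESeq2 1.42.0 on the recovered reads, other scalings, pseudocounts, filters and left-out libraries were the alternatives. Sums of levels were compared with exact permutation tests (Python 3.11.15, scipy 1.17.1). Intervals of ratios with 1 to 3 reads in one group are 95% counting intervals and cover counting error only, as do floors of 3 reads.

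Members, families and marker lists were chosen with earlier results of these data known. Named genes were Ptpn1, the 5 largest rises and 5 largest falls with a mean of at least 50 in each of 3 classes, up to 3 genes per family, the 5 highest levels in each genotype, and 3 rises and 3 falls among long noncoding RNAs, 219 in all, with predicted loci left out. Some genes are not reported here, and the next by the rule was named. Genes outside that rule are said to have been chosen after their values were seen, except markers. Same-numbered KO and WT control libraries had correlations of their deviations between 0.0012 and 0.0605. The labels give no pairing, and these small correlations, taken over control libraries only, do not settle whether the numbers pair libraries.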

Additional observations from a re-analysis of the deposited data

Results flagged for a closer look

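Of 446 groups of 4 libraries checked, those of the 219 named genes and of the summed levels of 4 gene classes, 25 held a library set apart from the other 3 by a larger part of the group's range than Dixon's 95% critical value for 4 samples. Chance alone flags about 1 group in 20. In 7 of these a single library held the only reads: the gap was 1 of the range for Adgrg2, Ano3, Bmp7, Hsd17b13, Pdgfd and Vtn in WT control, and also 1 for Mmp3 in KO control. Among the KO control groups with reads in several libraries the gap was 0.843 of the range for Actg2, 0.946 for Ccl7, 0.858 for Efna2, 0.958 for Irf8, 0.887 for Jag2, 0.953 for Kcnip3, 0.9 for Lmo4 and 0.948 for Zfpm2. Ccl7 stood at 5076 normalized counts in KO control replicate 4 and between 6016 and 6070 in the others. Among the WT control groups it was 0.878 for Alb, 0.854 for Aqp9, 0.91 for Ctf1, 0.852 for Cxcl17, 0.963 for Eya1, 0.844 for Kremen1, 0.864 for Marveld1, 0.842 for Ptma, 0.892 for Serpinb1a and 0.83 for Zic1. None of these libraries made the KO and WT control libraries of its gene overlap.

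For 21 named genes the KO against WT difference itself differed between palmitate and control libraries at an adjusted p below 0.05 in limma, against 9.9% of all genes. The change in log2 difference, palmitate minus control, was -1.64 for Aqp9, -1.55 for Ednra, -0.41 for Aldh1l1, -0.4 for Flt4, -0.35 for Cx3cl1, -0.34 for Sox9, -0.33 for Krt80, -0.31 for Sprr1a, -0.29 for Cldn2 and for Itga2, -0.23 for Nes and -0.19 for Rasl11b. It was 1.02 for Sox13, 0.89 for Arid5a, 0.65 for Bambi, 0.57 for Foxa3, 0.49 for Sfrp2, 0.47 for Thbs2, 0.36 for Cdh11 and for Fstl1, and 0.23 for Marveld1. Aqp9 had the lowest adjusted p of the 21, 1.7e-05 in limma, and remained higher in KO under palmitate (log2 difference 5.93).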

How the results depend on the processing

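Every count of genes kept within 1.5 times its reported value under the alternatives, with 1 exception: with a filter of at least 50 normalized counts in at least 4 libraries, 1165 genes were at least 2-fold lower in KO, against 1786 as reported, since fewer genes were tested. Leaving out each library in turn gave 11456 to 11538 genes differing, 1574 to 1614 at least 2-fold higher, 1754 to 1795 at least 2-fold lower and 1237 to 1571 with a difference between palmitate and control, and a log2 difference of Ptpn1 between -2.58 and -2.53. Scaling to equal library totals split the calls into 4980 higher and 6815 lower. edgeR on the recovered reads called 11773 genes and DESeq2 11476. Not every KO control library correlated best with the WT control library of its own number, and whether same-numbered libraries share more than a number was not settled. With the replicate block 11805 genes differed, 1592 at least 2-fold higher and 1784 lower, and 1820 differed between palmitate and control. Of 4142 values of named genes under alternatives, 1 lost its call: Eef1a1 under quantile normalization, with a log2 difference of 0.10 and an adjusted p of 0.212 in limma, against at most 1.94e-07 under its other alternatives. Of 2584 family counts 86 moved by more than 1.5 times. For 7 families the order of the higher and lower counts depended on the scaling, among them the chloride channel, connexin and aquaporin list, with 8 higher and 8 lower after scaling to equal totals, and the protease inhibitors, protocadherins, Eph receptors, TNF receptors, RAB GTPases and myosins. The number of libraries limits the exact tests to a p of 0.0286.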
